A study of Caenorhabditis elegans with 2 samples.

Results

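The 9 genes described here encode heat shock proteins and their partners in *Caenorhabditis elegans*: hsp-110, hsp-1, hsp-60, hsp-6, hsp-3, hsp-4, hsp-12.1, sti-1 and hsf-1. They are 9 of 19973 nuclear protein-coding genes, and they were examined in a chromatin immunoprecipitation sequencing (ChIP-seq) map of the Hox transcription factor MAB-5 fused to eGFP. The material was whole embryos of mixed stage and mixed sex from strain OP27, which carries unc-119(ed3) on chromosome III and the integrated transgene wgIs27. There were 2 biological replicates of this 1 group and no other genotype, treatment or time, so no comparison between groups exists. The submitters list mab-5 as the antibody but describe a ChIP against the eGFP fusion, so which was precipitated is unclear. No source used here states what drives the transgene, its copy number or which cells made the fusion. In whole embryos, binding in few cells and weak binding in many cells cannot be told apart.

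The genes were chosen by gene family together with their peaks and signal values in these same lists, with earlier results in view. The presence and strength of their peaks are therefore a description, and no test was made on them. Each gene had a start window of 2000 bp before and 500 bp after its annotated start. A peak was given to a gene when its summit, the position of highest enrichment, lay in that window. All coordinates are on ce11 (WBcel235).

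Heat shock proteins are chaperones, which bind unfolded proteins and help them fold, assemble or be cleared. HSP70 proteins cycle with ATP, J proteins start that cycle, nucleotide exchange factors such as HSP110 and BAG proteins end it, and the adaptor STI1/HOP hands clients on to HSP90. Separate HSP70 proteins serve the cytosol, the mitochondrion and the endoplasmic reticulum (ER), and the mitochondrial chaperonin HSP60 works with the co-chaperonin HSP10. Small heat shock proteins hold unfolded proteins without using ATP. The transcription factor HSF-1 binds heat shock elements, which are inverted GAA and TTC units spaced every few bases, and drives many chaperone genes under stress and during larval development in *C. elegans*.

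The sequences around 5 of the summits show where heat shock units and other short sites lie relative to the peaks. Each runs 5′ to 3′ along the gene's own strand, toward the gene start, and holds the 100 bases on each side of the summit, which is base 101. The hsp-3 run stops before the gene start. Capitals mark every match, on either strand, to GAANNTTC or TTCNNGAA (2 units of a heat shock element), GAGAGAGA, TGACGTG (an XBP-1 type site), TGATNNAT (the composite site of Hox and PBC proteins), TAATTA (a homeodomain site), TTTCCCGC or TTTGGCGC (E2F type sites). A match is a match of letters and does not show that a factor binds there. The 5 sequences are examples and are not the 5 strongest summits. With the replicates pooled, hsp-3 had a signal value of 33.6, below hsp-12.1 (35.6) and hsf-1 (34.1), which are not printed. All 5 hold a match, but the hsp-3 sequence holds no heat shock pair. Of the windows not printed, those of hsp-6 and a second hsp-3 summit held no match. Those of hsp-12.1, hsf-1 and hsp-4 each held a heat shock pair.
hsp-110 (chrIII:8447066-8447266, minus strand): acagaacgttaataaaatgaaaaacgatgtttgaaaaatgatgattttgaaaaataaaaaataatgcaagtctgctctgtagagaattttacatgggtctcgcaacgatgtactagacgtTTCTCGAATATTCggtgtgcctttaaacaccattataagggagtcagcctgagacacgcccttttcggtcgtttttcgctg
hsp-60 (chrIII:1619009-1619209, plus strand): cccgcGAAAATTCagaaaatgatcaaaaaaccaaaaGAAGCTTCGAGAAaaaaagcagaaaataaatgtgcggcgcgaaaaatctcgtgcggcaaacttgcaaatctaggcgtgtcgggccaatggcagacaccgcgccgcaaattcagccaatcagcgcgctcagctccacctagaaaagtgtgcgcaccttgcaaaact
hsp-1 (chrIV:17278495-17278695, plus strand): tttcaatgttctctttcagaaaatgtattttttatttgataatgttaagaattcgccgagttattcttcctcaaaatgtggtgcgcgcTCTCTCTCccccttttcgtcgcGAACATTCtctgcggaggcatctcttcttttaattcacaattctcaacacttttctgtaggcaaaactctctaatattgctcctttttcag
sti-1 (chrV:773312-773512, plus strand): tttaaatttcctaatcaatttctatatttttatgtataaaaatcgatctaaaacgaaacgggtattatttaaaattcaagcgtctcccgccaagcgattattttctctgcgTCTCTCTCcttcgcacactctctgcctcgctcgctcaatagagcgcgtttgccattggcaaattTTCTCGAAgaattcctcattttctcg
hsp-3 (chrX:6092125-6092300, minus strand): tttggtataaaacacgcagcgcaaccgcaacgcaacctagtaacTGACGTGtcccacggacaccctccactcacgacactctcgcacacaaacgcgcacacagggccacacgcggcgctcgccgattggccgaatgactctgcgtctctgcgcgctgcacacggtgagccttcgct

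In the hsp-110 sequence the capitals are a run of 3 alternating heat shock units, TTC, GAA and TTC, centred 26 bp from the summit on the side of the gene. In hsp-60 a 3-unit run, GAA, TTC and GAA, was centred 58 bp from the summit on the far side, with a further GAANNTTC pair 92 bp from it. hsp-1 had a GAANNTTC pair 13 bp from the summit and a match to GAGAGAGA on the opposite strand 9 bp on the other side. sti-1 had a TTCNNGAA pair 78 bp and a GAGAGAGA match 14 bp from the summit, both on the gene side. hsp-3 had the XBP-1 type letters TGACGTG 53 bp from the summit, away from the gene.

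The deposited lists comprise a relaxed list of 30000 peaks for each replicate, another for the replicates pooled, and a thresholded list of 502 peaks kept by the irreproducible discovery rate (IDR). The 502 listed peaks were the pooled peaks with the highest signal values, from 34.3 to 408, and 21 of them were mitochondrial. The signal value is the authors' own measure of enrichment on a scale that no source used here states, so values were ranked only within a list, with rank 1 the highest. Read depth is unknown, and no counting error can be given. Of 481 nuclear listed peaks, 460 held a summit of both replicates. In these, the replicates' summits lay a median of 35 bp apart, the ranks of the replicates differed by a median factor of 2.60, and in 1 of 10 peaks by more than 17.9.

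Of the 9 heat shock and co-chaperone genes, 5 had a summit of the thresholded list in their start window: hsp-110, hsp-60, sti-1, hsp-1 and hsp-12.1. Over all genes, 496 had one, or 2.48%. Since the genes were picked with these calls known, nothing is read from that contrast. The pooled relaxed list placed a summit in the windows of 9 of 9 genes, against 54.3% of all genes. The list of replicate 1 did so for 8 of 9, all but hsp-4, against 58.0% of all genes, and that of replicate 2 for 9 of 9, against 55.7%. Ranks were part of the choice as well, so they too are a description. The median rank of the strongest summit was 444 for the 9 genes in the pooled list, against 10115 for the 10854 genes with a pooled summit. It was 215.5 in replicate 1 (8 genes), against 11014.5 over all genes with a summit, and 380 in replicate 2, against 10679.

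**Figure D1:**
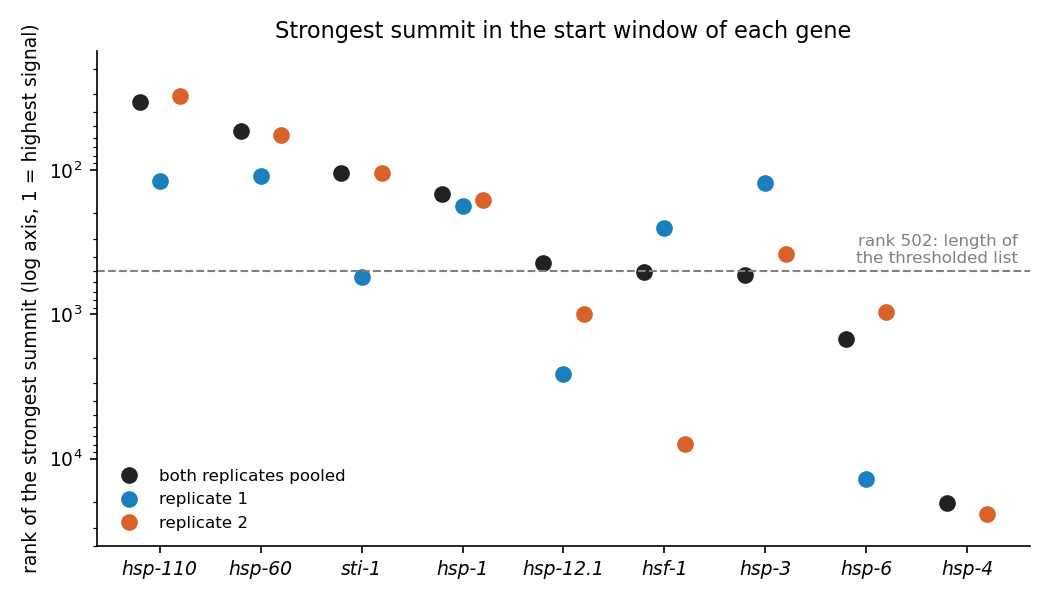
Rank of the strongest summit in the start window of each gene (log axis, 1 is the highest signal value) in the pooled list, in replicate 1 and in replicate 2, with a dashed line at rank 502, the length of the thresholded list. hsp-110, hsp-60 and hsp-1 sit above the line in all 3 lists, hsp-3 in each replicate but not pooled, and hsp-4 lies at rank 20331 or lower, with no point for replicate 1.

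hsp-110 and hsp-1, which encode the cytosolic exchange factor HSP110 and the constitutive cytosolic HSP70, had strong summits in both replicates. The hsp-110 gene (WBGene00016250, III, 8443910 to 8446909, minus strand) had its listed peak at III, 8447098 to 8447217, with the summit 257 bp upstream in intergenic sequence. Its signal value was 94.6 in the pooled list, at rank 34, and 6 protein-coding genes had a stronger start-window summit. In replicate 1 the signal value was 22.8 at rank 120, and in replicate 2 it was 72.0 at rank 31. The replicates' summits lay 10 bp apart. The listed interval was 120 bp wide, whereas the list's median was 340 bp and 4.38% of its peaks were narrower than that. The hsp-110 summit also lay 187 bp upstream of rpn-3, a gene for a subunit of the proteasome lid, which starts 444 bp away on the opposite strand. It was nearer to rpn-3 than to hsp-110, so the peak cannot be given to hsp-110 alone.

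The hsp-1 gene (WBGene00002005, IV, 17278959 to 17281330, plus strand) had the rank that differed least between the replicates, among the 8 genes seen in both. Its peak at IV, 17278425 to 17278764 had a summit 364 bp upstream and a signal value of 52.5, at rank 146. Replicate 1 gave 19.7 at rank 177 and replicate 2 gave 34.8 at rank 163, a factor of 1.09 between ranks. The summit lay in no other gene's start window, and 110 genes had a stronger one. Weak summits farther upstream did not recur: at 1092 bp in replicate 1 (rank 22119) and at 1581 bp in replicate 2 (rank 24305).

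The mitochondrial chaperone genes differed in rank. hsp-60 (WBGene00002025, III, 1619742 to 1625803, plus strand), which encodes the chaperonin, had a peak at III, 1618939 to 1619278 with a signal value of 76.1, at rank 54. Replicate 1 gave 23.7 at rank 110 and replicate 2 gave 51.2 at rank 57, with summits 25 bp apart. The pooled summit was 633 bp upstream of hsp-60 and 180 bp upstream of Y22D7AL.10, the gene for the co-chaperonin HSP10, which starts 813 bp away on the opposite strand. Both subunits of the chaperonin machine thus share this peak, which lies nearer to the HSP10 start. A weaker pooled summit 1205 bp upstream (rank 2055), inside an intron, was also found in replicate 1 (rank 6712) and replicate 2 (rank 2395).

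hsp-6 (WBGene00002010, V, 4824124 to 4826760, minus strand), which encodes the mitochondrial HSP70, ranked far higher in replicate 2 than in replicate 1. Its pooled summit was 477 bp upstream (V, 4827067 to 4827406) with a signal value of 23.3, at rank 1478. In replicate 1 the value was 5.14 at rank 13879, and in replicate 2 it was 19.8 at rank 969, so the ranks differed 14.3-fold while the summits lay 19 bp apart. The summit was nearer to the divergent gene C37H5.5, at 123 bp upstream. A stronger pooled start-window summit was found at 1362 genes for hsp-6 and at 32 genes for hsp-60.

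hsp-3 and hsp-4 both encode the ER HSP70 known as BiP, and their start windows differed widely in rank. hsp-3 (WBGene00002007, X, 6089028 to 6092124, minus strand) had 2 pooled summits, and each was strong in 1 replicate. The summit 76 bp upstream (X, 6092030 to 6092369) had a pooled signal value of 33.6 at rank 531. There, replicate 1 gave 22.4 at rank 124 and replicate 2 gave 7.59 at rank 18172. At the summit 885 bp upstream (X, 6092839 to 6093178) the pooled signal value was 28.6 at rank 847. Here replicate 1 gave 5.06 at rank 14403, and replicate 2 gave 26.6 at rank 380. The ranks thus differed 147-fold at the first site and 37.9-fold at the second, in opposite directions. The second summit was nearer to the divergent gene C15H9.5, at 291 bp upstream, and the first to hsp-3.

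hsp-4 (WBGene00002008, II, 7350112 to 7352645, minus strand), whose induction through IRE-1 and XBP-1 is the classic readout of ER stress in *C. elegans*, had the weakest peak of the 9 genes. A pooled summit 266 bp upstream (II, 7352741 to 7353080) had a signal value of 9.81, at rank 20331. Replicate 1 had no summit in the window, and replicate 2 had 1 at 169 bp upstream, with a signal value of 6.51 at rank 23971. The median pooled rank over all genes with a summit was 10115, so the hsp-4 peak ranked in the weaker part of the list. Stronger start-window summits were found at 8632 genes.

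sti-1 (WBGene00019983, V, 773518 to 774775, plus strand), the gene for the HSP70 to HSP90 adaptor, had a listed peak at V, 773242 to 773581 with the summit 106 bp upstream. The signal value was 59.0 at rank 105 in the pooled list, 13.8 at rank 556 in replicate 1 and 40.7 at rank 106 in replicate 2. Summits of the replicates lay 29 bp apart. The summit also fell in the start window of the chemoreceptor-type gene srbc-58, whose start was 1583 bp away, far beyond that of sti-1. Stronger pooled start-window summits were found at 76 genes.

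hsp-12.1 (WBGene00011906, I, 10581538 to 10582615, minus strand), a small heat shock protein gene, was listed near the threshold. Its summit 565 bp upstream (I, 10583010 to 10583349) had a pooled signal value of 35.6 at rank 444. At this site replicate 1 gave 8.31 at rank 3439, and replicate 2 gave 19.6 at rank 997, so neither replicate placed it among its own 502 strongest peaks. Replicate 1 had a slightly stronger summit 1899 bp upstream (signal value 9.03, rank 2579), near a weak pooled summit at 1789 bp (rank 8603). Another pooled summit lay 443 bp downstream of the start, in an intron (rank 13271).

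hsf-1 (WBGene00002004, I, 11953507 to 11963085, minus strand), the gene for the heat shock factor itself, fell just short of the thresholded list. Its summit 191 bp upstream (I, 11963106 to 11963445) had a pooled signal value of 34.1 at rank 512. Replicate 1 gave 17.4 at rank 254, while replicate 2 gave 10.7 at rank 7870, with summits 135 bp apart. This was the largest distance between replicate summits among the strongest pooled summits of the 8 genes seen in both replicates, and the ranks differed 31.0-fold. A weak summit 1813 bp upstream (rank 16293) was present in both replicates.

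The threshold of the list passed between these genes. The lowest listed signal value was 34.322, at rank 502, and the highest unlisted pooled value was 34.303, at rank 503. hsp-12.1 lay just inside at 35.6, and hsf-1 at 34.1 and hsp-3 at 33.6 just outside. The 3 pooled values span fewer ranks, from 444 to 531, than separate the replicates at any of these genes.

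**Figure D2:**
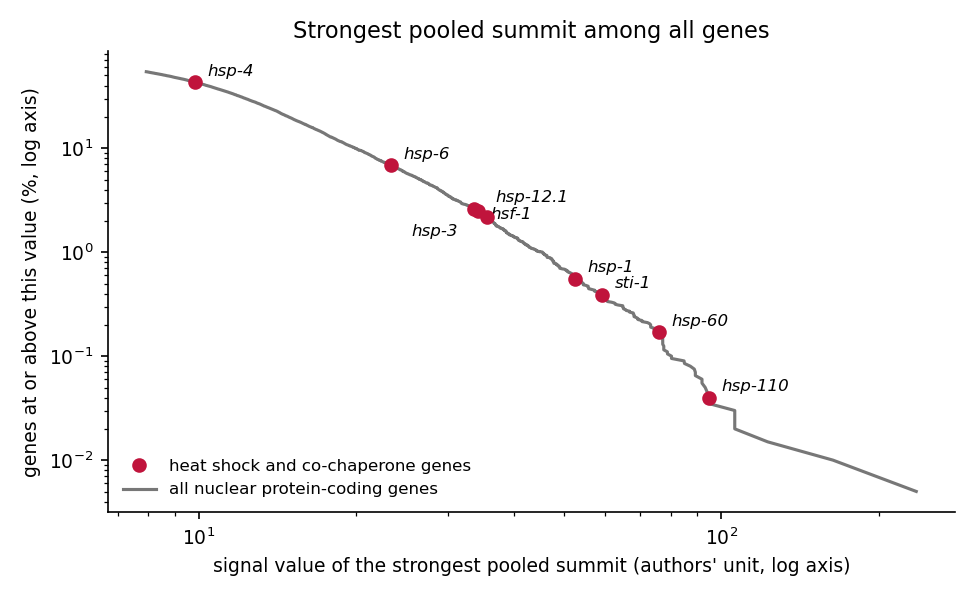
Share of all 19973 nuclear protein-coding genes whose strongest pooled start-window summit reaches a given signal value (both axes log), with the 9 heat shock and co-chaperone genes as points on the curve. hsp-110 stands near the top, with 6 genes higher, hsp-12.1, hsf-1 and hsp-3 lie side by side, and hsp-4 falls where 8632 genes are higher.

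When each replicate's own 502 strongest peaks replaced the thresholded list, each replicate again gave 5 of the 9 genes, but not the same 5. Over all genes, replicate 1 gave 2.25% and replicate 2 gave 2.27%. hsp-3, hsp-1, hsp-60 and hsp-110 were found with both replicates, hsf-1 with replicate 1 alone and sti-1 with replicate 2 alone. Neither replicate gave hsp-12.1, hsp-6 or hsp-4. hsp-3 was reached through its proximal summit in replicate 1 and its distal summit in replicate 2. Thus 6 genes were found with at least 1 replicate, and in 3 of them the same summit was strong in both: hsp-110, hsp-60 and hsp-1. At the listed sites of hsp-110, hsp-60, hsp-1, sti-1 and hsp-12.1, the ranks of the replicates differed by factors of 3.87, 1.93, 1.09, 5.25 and 3.45. These lay within the range, up to 17.9, that held 9 of 10 of the 460 nuclear listed peaks with a summit of both replicates. At unlisted sites the factor was 14.3 at hsp-6, 31.0 at the stronger hsf-1 summit, and 147 and 37.9 at the hsp-3 sites. It was smaller at 2 weaker unlisted summits, 2.80 at 1205 bp upstream of hsp-60 and 1.82 at 1813 bp upstream of hsf-1. No such range was made for unlisted peaks, so these factors have no like set beside them.

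**Figure D3:**
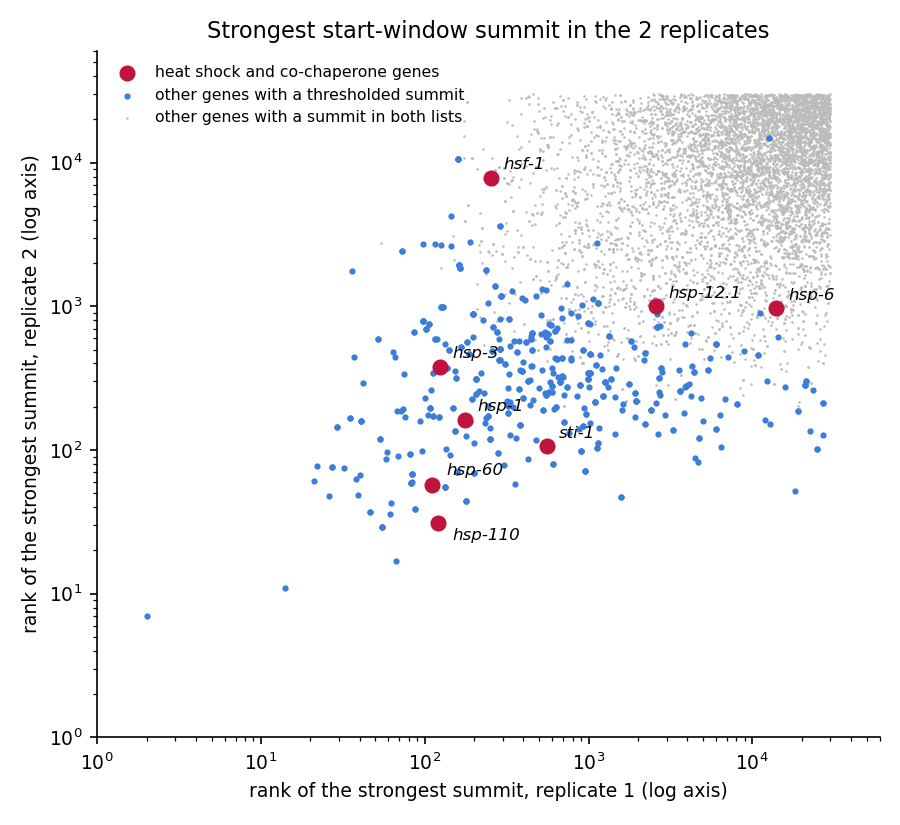
Rank of each gene's strongest start-window summit in replicate 1 (x axis, log) against replicate 2 (y axis, log) for the 8 heat shock and co-chaperone genes with a summit in both lists, other genes with a thresholded summit, and the remaining genes. hsp-110, hsp-60 and hsp-1 lie at low ranks on both axes, hsf-1 lies at 254 and 7870, hsp-6 at 13879 and 969, and the hsp-3 and hsp-12.1 points each combine different summits of the replicates.

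Strongest pooled summits were upstream at 9 of 9 genes, against 84.8% of the 10854 genes with a pooled summit. They lay 76 to 633 bp before the gene start, with a median of 266 bp, against a median of 570.5 bp upstream over all such genes. Strength was part of the choice of the 9 genes, with a median pooled rank of 444 against 10115. The 2 sets are thus unlike in strength, and nothing is read from these contrasts in position. Each strongest pooled summit of the 9 genes was intergenic. The share of intergenic summits over all genes was not computed, so nothing is read from this. Another protein-coding gene's start window held the same summit at 5 of 9 genes, namely hsp-110, hsp-60, hsp-6, hsp-3 and sti-1, against 40.3% of genes with a pooled summit. At hsp-110, hsp-60 and hsp-6 the other start was nearer. The closest start upstream was on the opposite strand at 5 of 9 genes, against 48.3%. Start windows of the 9 genes held 14 pooled summits in all, or 1.56 per gene, against 0.812 per gene over all genes. The figure for all genes includes those without a pooled summit, since 54.3% of all genes had one. The 9 genes were chosen with their peaks known, so nothing is read from this contrast.

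**Figure D4:**
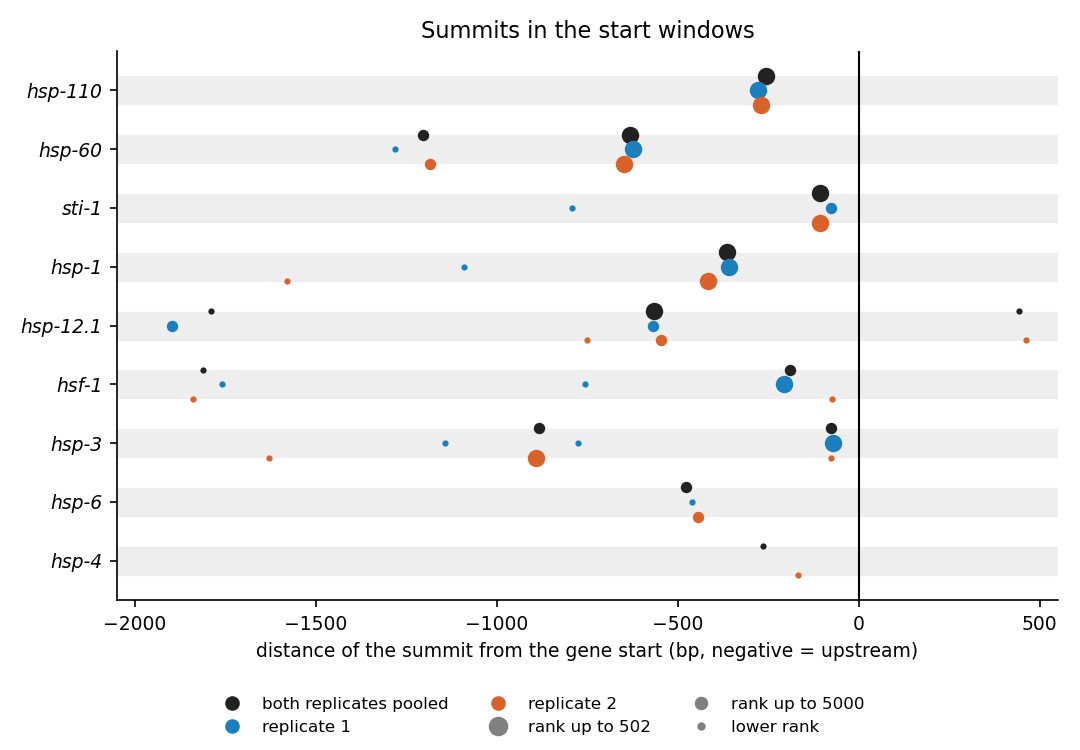
Distance of every summit from the gene start (bp, negative is upstream) in the start windows of the 9 genes, with a colour for each list and larger points for higher ranks. At hsp-110 the 3 lists place a single summit within 257 to 279 bp upstream, whereas hsp-3 shows a proximal and a distal site that are large in different replicates.

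Base composition and motif content varied among the summits. Within 100 bp of the summit, GC content ran from 31.8% at the distal hsp-3 summit to 60.2% at the proximal one, against a median of 41.3% over 481 nuclear listed summits and 32.8% over the 29978 nuclear pooled summits. Of the 10 windows compared here (the strongest pooled summit of each gene and the distal one of hsp-3), 5 were listed and 5 were in the pooled list alone. The proximal hsp-3 window was richer in GC than 99.6% of the listed windows, and the hsp-60 window, at 48.3%, than 84.0%. None of the 10 windows held TGATNNAT, the Hox and PBC letters, or TAATTA. TGATNNAT occurred in 28.7% of listed and 15.3% of pooled windows, and TAATTA in 8.32% of listed and 11.6% of pooled windows. A search for letters in short windows says nothing about where MAB-5 binds.

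A heat shock element of 3 alternating units lay in 2 of the 10 windows, at hsp-110 and hsp-60, against 2.08% of listed windows and 1.60% of pooled windows. Pairs of units were found in 5 windows as GAANNTTC and in 4 as TTCNNGAA, against 8.94% of listed windows each and 15.1% and 14% of pooled windows. A 3-unit element holds both kinds of pair, so hsp-110 and hsp-60 stand in each of these counts. In a search added after these values were seen, 4 of the 9 genes had a 3-unit element in the 500 bp before the start, against 3.25% of all genes. They were hsp-110 (2 elements, the farther centred 231 bp upstream), hsp-1 (138 bp), hsp-6 (301 bp) and sti-1 (332 bp). Heat shock genes are known for such elements, so their presence is background, and their distance to the summit is the measurement. That distance was 26 bp for the farther element at hsp-110, 176 bp at hsp-6 and 226 bp at both hsp-1 and sti-1. The search of 500 bp did not reach the hsp-60 summit, 633 bp upstream. The 3-unit element in the hsp-60 window lay 58 bp from that summit. The XBP-1 type letters TGACGTG, at hsp-3 alone of the 10 windows, were in 2.70% of listed and 1.24% of pooled windows. GAGAGAGA, at hsp-1 and sti-1, was in 11.4% of listed and 2.54% of pooled windows.

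Other chaperone and stress genes, taken from lists of known family members, had 9 listed genes of 86, or 10.5%, against 2.48% of all genes. The lists were chosen with earlier results of these data known, so nothing is read from that contrast either, and it was not tested. These 9 listed genes rest on 8 summits, of which 7 lay outside the windows described above. Y22D7AL.10 shares the hsp-60 summit, and F44E5.4 and F44E5.5 share 1. F44E5.4 and F44E5.5 are a divergent pair of closely similar HSP70 genes, and their summit had a signal value of 38.1 (rank 355). How reads that match both copies were treated is not stated, so this value is uncertain. Counting the members, 4 of 11 genes of the HSP70 and HSP110 family were listed, while the start window of hsp-70, another HSP70 gene, had 0 summits in any list. Among partners of HSP90, 3 of 15 were listed. bag-1, which encodes a BAG-type exchange factor, had a signal value of 59.5 (rank 103) with its summit 208 bp upstream and in the start window of syp-6 too. ahsa-1, the gene for an activator of the HSP90 ATPase, had 48.6 (rank 187), but ranks of 73 in replicate 1 and 2429 in replicate 2, at a summit that also lay in the start window of C01G10.7. hsp-90 itself had its best pooled summit at rank 23398.

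The ER list had 1 listed gene of 18, xbp-1, the transcription factor gene that acts upstream of hsp-4, with a signal value of 35.2 (rank 465) and a summit 105 bp upstream. Mitochondrial chaperone and stress genes had 2 of 13, hsp-60 and Y22D7AL.10, through 1 summit. The J proteins had 3 of 29, namely dnj-9 (signal value 47.0, rank 205), dnj-22 (rank 383) and dnj-29 (34.7, rank 487), and the summits of dnj-22 and dnj-29 also lay in the windows of other genes. Small heat shock proteins had 1 of 16, hsp-12.1. The stress-inducible hsp-16.2 and hsp-16.41, a divergent pair, shared a pooled summit with a signal value of 20.5 at rank 2198. The replicates differed there, with rank 28327 in replicate 1 and rank 1818 in replicate 2. The start window of hsp-16.48 had 0 summits in any list. How reads that match more than 1 place were treated is not stated, so this absence is uncertain. Of other hsp-16 genes, hsp-16.1 and hsp-16.11 shared a pooled summit at rank 6107, and hsp-16.49 had one at rank 4238. hsp-16.20 and hsp-16.21 shared one at rank 8886. The unknown treatment of such reads may affect the ranks of hsp-16 genes too. Of the genes around HSF-1, 1 of 4, hsf-1 itself, had a pooled summit, against 54.3% of all genes. The inhibitor gene hsb-1 had 0 summits in any list. ddl-1 had a summit in replicate 2 alone (rank 4473), and ddl-2 had one in replicate 1 alone (rank 26773).

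**Figure D5:**
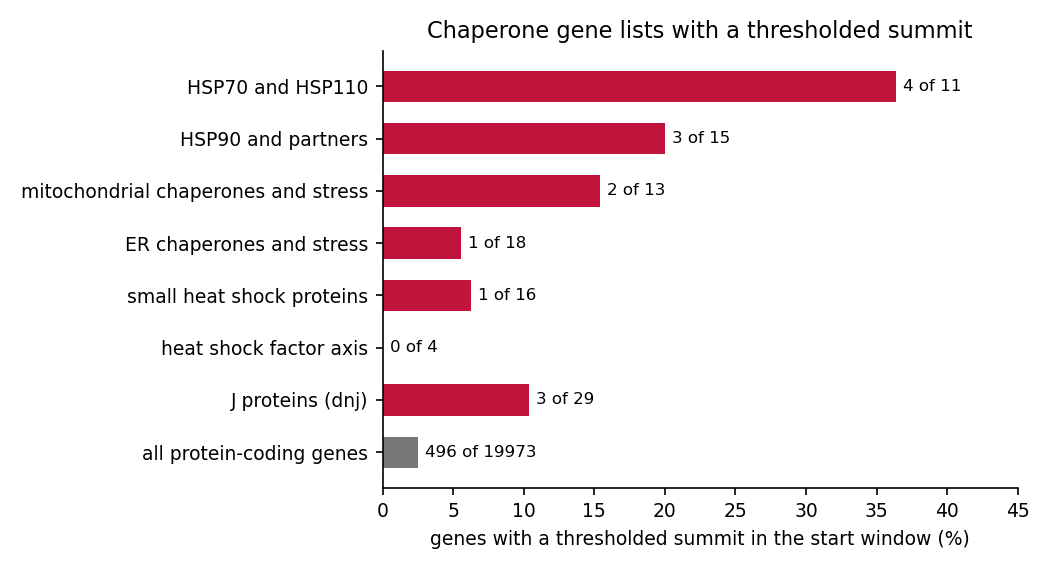
Share of genes with a thresholded summit in the start window for 7 chaperone and stress gene lists, with all protein-coding genes as the lowest bar. The bars run from 0 of 4 genes around the heat shock factor to 4 of 11 for the HSP70 and HSP110 family, and several genes stand in more than 1 list.

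Genes most like each listed member were sought by the distance between their log10 ranks in the replicates, which rests on 2 values, among 493 genes with a listed summit and a summit in both replicates. Apart from rpn-3, which shares the peak, hsp-110 was nearest to mlcd-1 and idhg-1, which share a summit at ranks 87 and 39 (distance 0.172). Next to hsp-60, after Y22D7AL.10, were the ribosomal protein gene rpl-15 and K11H12.1 at ranks 132 and 55 (distance 0.0807). hsp-1 was nearest to T23G4.127 at ranks 190 and 156 (distance 0.0362), then to tig-2 and F39G3.3 (0.103). sti-1 was nearest, after srbc-58, to ttr-17 (0.0807) and usp-39 (0.128). hsp-12.1 was nearest to the nuclear pore gene npp-13 at ranks 2607 and 881 (0.0539) and to rpl-28 and mrpl-49 (0.140). The hsp-12.1 ranks in this comparison, 2579 and 997, come from different sites, since replicate 1 ranked the listed site at 3439, so this likeness is not that of the listed peak.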

How the data were processed

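ChIP-seq peak lists of eGFP-tagged MAB-5 from 2 biological replicates were used as deposited. Per the labels, the size range of both libraries was 150 to 350 bp. Per the deposited file descriptions, peaks were called with a control alignment on each replicate and on the replicates pooled, and IDR gave the thresholded list. No source used here names the caller or aligner. The authors' signal value of each peak is their own enrichment measure. The control library, the ce10 lists and read depth were not used here. The deposited summit offset (another column, in bp) gave each summit.

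Gene starts came from Ensembl release 115 (WBcel235), and symbols from RefSeq by WormBase ID, found for 99.96% of 19973 genes. hsf-2 is annotated as a pseudogene and was left out. Ranks include mitochondrial peaks. Motif matches on either strand were counted within 100 bp of each summit. Sequences are from the RefSeq WBcel235 genome. The members and lists were chosen with earlier results of these data known. The text names the 9 members, genes that share their summits, listed genes of the chaperone lists and the 3 genes nearest in rank to each listed member; genes of the chaperone lists without a listed summit were named after their values were seen. Alternatives were windows of 1000 and 5000 bp upstream, the nearest gene start alone, the stronger part of each list, 1 replicate's list and the most downstream transcript start. Window assignment and motif search were tested on simulated data. Python 3.11.15, numpy 2.4.6, pandas 2.3.3 and matplotlib 3.10.9 were used.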

Additional observations from a re-analysis of the deposited data

How the results depend on the processing

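When each summit went only to the protein-coding gene with the nearest start, 3 of the 9 genes kept a thresholded summit, namely hsp-1, hsp-12.1 and sti-1, against 1.47% of all genes; with the full window these were 5 of 9 and 2.48%. Under the same setting 5 of 9 kept a summit of replicate 1 (45.1% of all genes), 6 of 9 a pooled summit (42.8%) and 6 of 9 a summit of replicate 2 (43.7%). With windows of 1000 and 5000 bp upstream, the thresholded count was 5 in each case, against 1.85% and 3.92% of all genes. It was 4 with the strongest 251 of the listed peaks, which left out hsp-12.1, against 1.1%. It was 5 without replicate 1 (2.27% of all genes), with hsp-3 in place of hsp-12.1, and 5 without replicate 2 (2.25%), with hsp-3 and hsf-1 in place of hsp-12.1 and sti-1. The strongest pooled value of hsp-60 was 14.5 when its window was set at its most downstream transcript start, and that of hsp-4 was 17.5 with the window of 5000 bp. No paired analysis was possible because the replicates form 1 group. Unknown depth leaves weak summits, such as that of hsp-4, without an error.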

Other observations

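Outside the start windows, thresholded summits were absent from the bodies of the 9 genes, and weaker ones were found in the longer genes. The share of all genes with a thresholded body summit was not computed, so nothing is read from that absence. hsp-110 held 2 body summits in replicate 2 alone, the stronger 1177 bp downstream at rank 13775. hsp-60 held 4 pooled summits in its body beyond 500 bp from the start, the strongest 2672 bp downstream with a signal value of 14.5 (rank 7083), while the strongest lay 2701 bp downstream at rank 2369 in replicate 1 and 2085 bp downstream at rank 19288 in replicate 2. hsf-1 held 3 in its body, the strongest 3480 bp downstream (rank 9200), while the strongest in replicates 1 and 2 lay 9256 and 5164 bp downstream, at ranks 15681 and 4924. hsp-3 held 1, near its 3′ end, 2914 bp downstream with a signal value of 20.6 (rank 2193). The strongest body summits of hsp-3 in replicates 1 and 2 lay 2930 and 2967 bp downstream, at ranks 2457 and 9809. For the 4 unlisted genes, the nearest thresholded summit was 32907 bp from the start of hsf-1, 95161 bp from hsp-6, 115705 bp from hsp-3 and 168566 bp from hsp-4.

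Of the other chaperone and stress genes, the 4 unlisted ones nearest to the threshold in the pooled list were dnj-10, clpp-1, dnj-13 and sgt-1. The mitochondrial J protein gene dnj-10 ranked 563 in the pooled list, with ranks of 25244 in replicate 1 and 415 in replicate 2. clpp-1, which encodes the mitochondrial ClpP protease, ranked 773, with ranks of 1240 and 730. The J protein gene dnj-13 ranked 777, with ranks of 298 and 2324. sgt-1 ranked 805, with rank 295 in replicate 2 and no summit of replicate 1 in its start window. Farther down the list, the ER stress sensor gene ire-1 ranked 1098, and the small heat shock protein gene sip-1 ranked 1422, with ranks of 584 and 19813. These genes were chosen after their values were seen.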
